A study of Sus scrofa with 24 samples.

Results

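AGT is the gene of angiotensinogen, and the deposited table lists it as 2 transcripts on pig chromosome 14, out of 22154 transcripts in all. The members are the rows that carry the symbol AGT on that chromosome, and AGT is 1 of the 12017 genes obtained when transcripts are summed per symbol. The gene was singled out because it was among the genes that differed most between the animal groups, so its own difference between those groups is described here without a test. Angiotensinogen is a secreted protein of the serpin family, made mostly by liver and also by fat tissue. In the circulation and within tissues, it is cut to angiotensin I, and the angiotensin-converting enzyme ACE trims that peptide to angiotensin II. Angiotensin II acts mainly through the receptor AGTR1 to constrict vessels and release aldosterone, and in skeletal muscle and fat it has been linked to blood flow, growth of connective tissue and fat storage.

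The RNA came from the longissimus dorsi, the long back muscle, of 24 Duroc x Luchuan crossed pigs. The labels place 12 in a high and 12 in a low group for intramuscular fat (IMF), the fat stored between and within muscle fibres. All came from 265 F1 offspring of a cross between Duroc boars (8) and Luchuan sows (112), kept on 1 farm and diet and slaughtered at 210 days, give or take 6. Sampling followed slaughter by 25 minutes, and sequencing gave pairs of 150-base reads from polyA RNA. The groups carry no treatment and differ by selection on the trait, and the fat content, sex and litter of each animal are not used here. Each library is 1 animal, and animals are numbered within a group in order of deposition. The unit throughout is FPKM, fragments per kilobase of transcript, scaled to the size of the library, and log2 differences are high minus low IMF of log2(FPKM + 1).

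Depth inferred from the table, a relative measure, was 32.9 to 40.8 M reads (M for mega). Summed FPKM, which is already scaled to library size, ran from 351119 to 415572. The share of FPKM held by the 10 most abundant genes was 20.2% in high IMF animal 7 and 18.5% in low IMF animal 10, against at least 24.7% in the others. Genes of muscle fibres dominated as the tissue label says, with fast-fibre markers summing to 10960 to 32658 FPKM in high and 13234 to 28160 FPKM in low IMF.

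AGT lies on the plus strand of chromosome 14 (Sscrofa11.1). The reference transcript, ENSSSCT00000036625, spans chr14:59643292-59656810 with 6 exons and 1912 bases. The other transcript, MSTRG.4632.1, was added by the authors' assembly and spans chr14:59643254-59657798 with 5 exons and 3010 bases. Its class code, j, marks an isoform that shares at least 1 splice junction with a reference transcript. It starts 38 bases before the reference transcript and ends 988 bases after it, and its end lies 963 bases past the end of AGT in the RefSeq annotation of the same build. That annotation places the protein-coding gene (ENSSSCG00000010184) at chr14:59643030-59656835. The next listed gene, COG2, runs on the opposite strand towards AGT and ends 3970 bases beyond the assembled isoform, so the deposited gene models do not overlap.

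Muscle of high IMF animals held about double the AGT RNA of low IMF muscle. The sum of both transcripts had a lowest value of 8.76, a median of 11.6 and a highest value of 19.5 FPKM in the 12 high IMF animals, against a lowest of 2.43, a median of 6.37 and a highest of 12.4 FPKM in the 12 low IMF animals. The groups overlapped through a single animal: low IMF animal 2, at 12.4 FPKM, lay within the high IMF range, and the other 11 low IMF animals lay below every high IMF animal. The mean was 12.5 ± 2.76 FPKM in high and 6.20 ± 2.83 FPKM in low IMF (SD, n = 12 each), a ratio of 2.01 and a log2 difference of 0.98 (SE 0.184). In bulk muscle, a change in the number of cells that make a transcript and a change in RNA per cell cannot be told apart.

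Every one of the 12 high IMF animals exceeded the low IMF median of AGT, which was so for 1.68% of the 11757 genes tested. In the limma fit over those genes, 6 passed an adjusted p of 0.05 (0.051%), of which 5 were higher in high IMF (0.0425%); with TMM scaling, which sets libraries to a common level of typical genes, 6 of 11729 passed (0.0512%), 4 of them higher (0.0341%). AGT was chosen from this contrast, so no test result of its own is given or read from that fit. The spread relative to the mean was narrower in high IMF, with a coefficient of variation of 22.1% in high and 45.6% in low IMF. By rank within its own library, AGT exceeded 79.1 ± 3.08% of genes in high and 65.2 ± 10.2% of genes in low IMF, a measure that does not depend on a common scale between libraries.

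**Figure D1:**
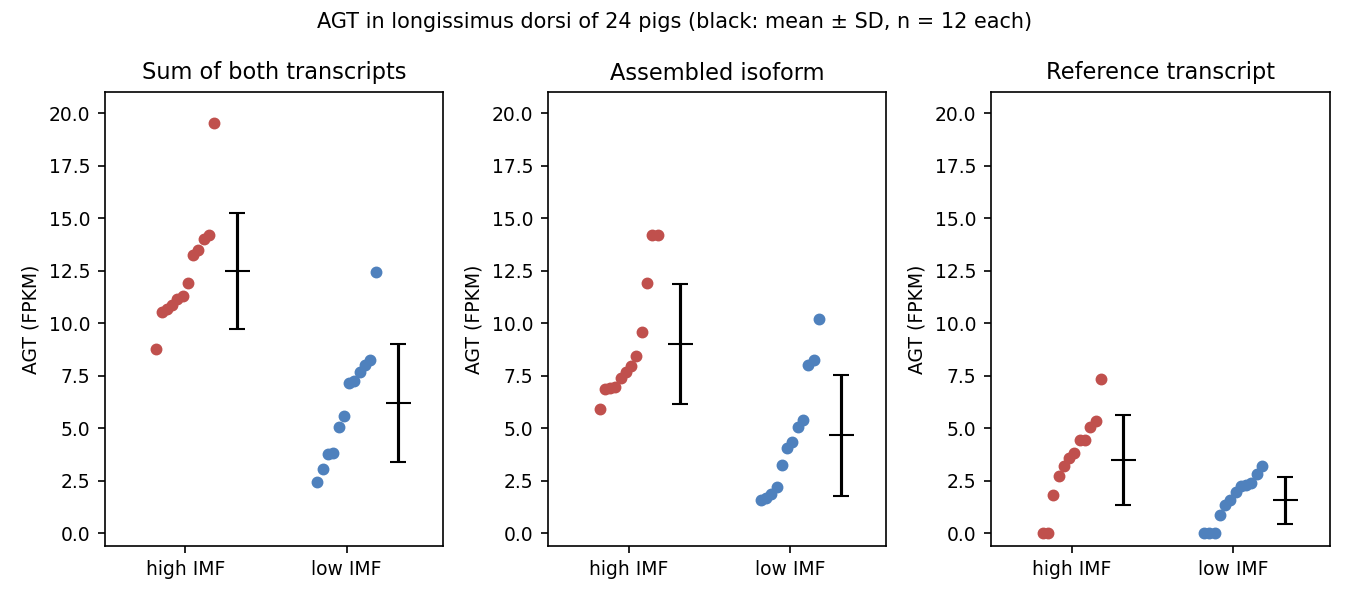
FPKM of AGT in each animal (y axis), for the sum of both transcripts, the assembled isoform and the reference transcript, with high IMF on the left and low IMF on the right of each panel. Points are animals and black bars the mean ± SD (n = 12 each); in the sum, 1 low IMF animal at 12.4 FPKM reaches the high IMF range, and the reference transcript is at 0 in 2 high and 3 low IMF animals.

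The assembled isoform carried most of the AGT signal. It had a lowest value of 5.91, a median of 7.81 and a highest value of 14.2 FPKM in high IMF, against 1.55, 4.19 and 10.2 FPKM in low IMF. Its mean was 9.0 ± 2.87 FPKM in high and 4.65 ± 2.86 FPKM in low IMF, a log2 difference of 0.94 (SE 0.239). Of the low IMF animals, 9 lay below every high IMF animal, and 3 lay within the high IMF range.

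The reference transcript was the lower of the pair and overlapped more. It reached a median of 3.69 and a highest value of 7.35 FPKM in high IMF, against a median of 1.75 and a highest value of 3.19 FPKM in low IMF. It was listed at 0 in high IMF animals 3 and 7 and in low IMF animals 1, 4 and 7. Because of these 5 animals the lowest value was 0 in both groups, while 7 high IMF animals exceeded every low IMF animal. The log2 difference was 0.74 (SE 0.362).

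The animals with the reference transcript at 0 were not animals without AGT. In high IMF animals 3 and 7 the assembled isoform stood at 14.2 and 11.9 FPKM, and in low IMF animals 1, 4 and 7 at 5.03, 8.23 and 7.99 FPKM. A transcript had to be above 0 in 19 of 24 libraries to be listed at all, and the reference transcript of AGT meets that minimum exactly, as do 610 transcripts of the table. The 2 models overlap in position, how many bases their exons share was not tested, and a 0 here can be a failed estimate.

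Where both transcripts were above 0, the split was alike in the groups. The reference transcript made up 33.4 ± 9.56% of AGT in 10 high IMF animals (20.4% to 55.4%) and 38.5 ± 9.64% in 9 low IMF animals (18.1% to 50.7%). In these 19 animals the reference transcript averaged 4.16 ± 1.55 FPKM in high and 2.07 ± 0.722 FPKM in low IMF, and the assembled isoform 8.19 ± 2.33 FPKM in high and 3.83 ± 2.73 FPKM in low IMF. Both transcripts were thus about 2-fold higher in high IMF, with ratios of 2.01 and 2.14. The sum in the same animals was 12.4 ± 2.98 FPKM in high and 5.90 ± 3.13 FPKM in low IMF, close to its value over all 24.

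**Figure D2:**
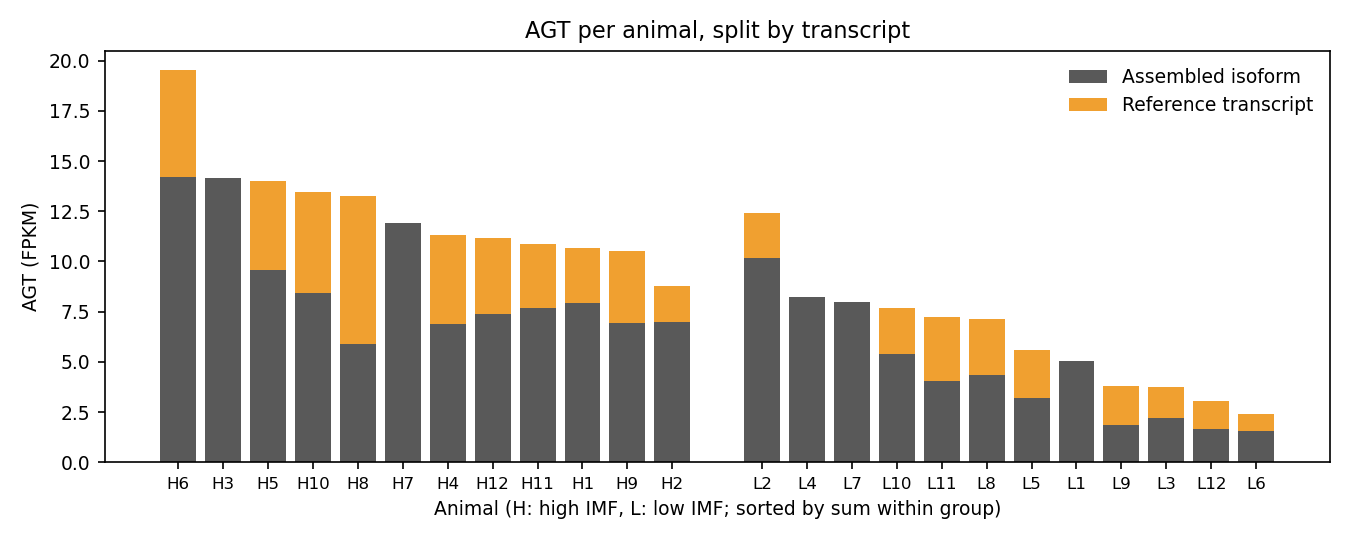
AGT in FPKM (y axis) per animal (x axis), sorted by the sum within each group, high IMF left and low IMF right, with the assembled isoform in grey and the reference transcript stacked on it in orange. The 5 bars without orange are the animals whose reference transcript is listed at 0, and their totals lie among those of the other animals of their group, from 11.9 to 14.2 FPKM in high and from 5.03 to 8.23 FPKM in low IMF.

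Across animals the transcripts moved against each other when the zeros were kept, with a Pearson r of -0.55 in high and -0.29 in low IMF. Without the 5 animals at 0, r was 0.16 in high IMF (n = 10) and 0.65 in low IMF (n = 9). These values are a description only, since both values come from 1 overlapping locus. When total base coverage was set over the length of the assembled isoform, AGT was 11.2 ± 2.60 in high and 5.63 ± 2.79 in low IMF. Its log2 difference was then 0.97.

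AGT was well covered in every library. At the inferred depth it corresponds to 836 to 2157 reads in high and 240 to 1345 reads in low IMF animals, for a counting error of 2.15% to 3.46% in high and 2.73% to 6.45% in low IMF. Counting error is far below the spread between animals, and it covers sampling of reads only. Reads of the same pair were counted as independent here, so the counting error is understated. After the IMF group means were removed, no relation of AGT was detected with inferred depth (Pearson r = 0.21, rho = 0.13, permutation p = 0.226 and 0.514). Nor was one detected with the share of the 10 most abundant genes (r = -0.11, rho = -0.14, permutation p = 0.663 and 0.535). Without the 2 animals farthest from the median of each measure, r was 0.12 and 0.03.

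The first 4 digits of the animal identifiers take 2 values, here called the larger and the smaller number, that divide each group into 6 and 6, and the labels do not give their meaning. Within both sets AGT was higher in high IMF, which is a description only, since AGT was chosen for that difference in these animals. It averaged 13.4 ± 3.39 FPKM in high and 5.92 ± 2.15 FPKM in low IMF in the set of the larger number (log2 difference 1.09), and 11.5 ± 1.77 FPKM in high and 6.48 ± 3.57 FPKM in low IMF in that of the smaller number (0.87). The identifier digits were not used to choose AGT. A choice that weighed its spread within groups would still favour small differences between the sets. No difference between the sets was detected for the sum (larger minus smaller number, log2 difference 0.07, stratified permutation p = 0.708, adjusted over 3 measures p = 0.790). Within high IMF the sets gave an exact permutation p of 0.279 and within low IMF of 0.907 (n = 6 each, two-sided, adjusted over 6 tests 0.838 and 0.907). The IMF difference itself differed by 0.22 between the sets (permutation p = 0.564, adjusted p = 0.579).

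In the authors' deposited table, the fold change was 0.538 for the assembled isoform and 0.575 for the reference transcript, taken here as low over high IMF. Turned round on that reading, these are 1.86 and 1.74 of high over low IMF, and nothing is read from their direction. The sources used here do not give how the authors computed them.

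Genes that act before and after angiotensinogen had log2 differences between -0.39 and 0.54. Of 29 other renin-angiotensin genes listed, 19 are in the table, and 10 are not analysed here, among them CTSG, CMA1, KLK1, CPA3, AGTR2, MAS1, MRGPRD, HSD11B2 and CYP11B2. Of the 18 tested, whose mean was 0.5 FPKM or more, 13 had a positive log2 difference with a median of 0.11, beside 73.4% positive and a median of 0.077 over all 11757 genes. None passed the adjusted threshold in the limma fit. At an unadjusted p under 0.05, 4 were higher (ACE, CTSD, DPP3 and NR3C2) and 0 lower, beside 6.79% of all genes higher and 0.893% lower. With TMM scaling, 11 were positive with a median of 0.04, beside 49.7% positive and a median of -0.0012 over all 11729 genes. An unadjusted p under 0.05 was then left for 2 (DPP3 and NR3C2), beside 2.77% of all genes higher. NR3C2 met the 0.5 FPKM minimum only through high IMF, so nothing is read from its place in either count. Of all genes with an unadjusted p under 0.05, 54.5% were higher in high IMF with that scaling, against 88.4% for FPKM as deposited.

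Among the enzymes that form angiotensin peptides, ACE, which makes angiotensin II, ran from 5.05 over a median of 8.03 to 10.4 FPKM in high IMF, against 3.56, 5.88 and 9.45 FPKM in low IMF. The groups overlapped over most of their range, although 11 of 12 high IMF animals exceeded the median of low IMF. The means were 7.79 ± 1.55 FPKM in high and 6.07 ± 1.74 FPKM in low IMF (log2 difference 0.33, SE 0.128, limma adjusted p = 0.544). CTSD, the lysosomal protease cathepsin D, which can cut angiotensinogen in the test tube, averaged 46.2 ± 11.6 FPKM in high and 37.1 ± 10.4 FPKM in low IMF (0.31, adjusted p = 0.647). NLN, or neurolysin, which makes the shorter peptide angiotensin-(1-7), had a log2 difference of 0.54 (SE 0.315), and THOP1, thimet oligopeptidase of the same family, one of -0.39 (SE 0.296). PRCP, a carboxypeptidase that trims angiotensin II, had -0.31, the endopeptidase MME, or neprilysin, 0.13, and PREP, prolyl endopeptidase, 0.05 (-0.06 with TMM scaling).

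Among the peptidases that break angiotensins down, DPP3, dipeptidyl peptidase 3, averaged 5.50 ± 2.01 FPKM in high and 3.86 ± 2.83 FPKM in low IMF (0.51, SE 0.207, limma adjusted p = 0.563). Its low IMF values reached 12.1 FPKM, above the highest of 9.91 FPKM in high IMF. The aminopeptidases ENPEP and ANPEP stayed under 1 FPKM on average in both groups, with log2 differences of 0.08 each.

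The angiotensin II receptor AGTR1 was present in every animal at a level that hardly separated the groups. It ran from 3.08 over a median of 4.25 to 7.50 FPKM in high IMF, against 2.48, 3.80 and 7.87 FPKM in low IMF. The log2 difference was 0.13 (SE 0.133, limma adjusted p = 0.829). ATP6AP2, a receptor of the system and a partner of the vacuolar proton pump, averaged 3.96 ± 0.362 FPKM in high and 3.44 ± 0.771 FPKM in low IMF (0.17, adjusted p = 0.651), with all 12 high IMF animals above the low IMF median. LNPEP, the aminopeptidase that binds angiotensin IV, had a log2 difference of 0.06 (-0.04 with TMM scaling). AGTRAP, which binds AGTR1 and draws it into the cell, had 0.18, and MTUS1, a protein that binds the other angiotensin II receptor, had -0.04 (0.02 with the level of Y-linked genes as a term).

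In the steroid arm, NR3C2, the mineralocorticoid receptor on which aldosterone acts, averaged 0.785 ± 0.507 FPKM in high and 0.381 ± 0.404 FPKM in low IMF (0.37, limma adjusted p = 0.624). Its mean over all animals, 0.583 FPKM, met the 0.5 FPKM minimum only through high IMF. NR3C2 was listed at 0 in at least 1 animal of each group. HSD11B1, which activates cortisol in fat and liver, had a log2 difference of -0.10, and SGK1, a kinase induced by corticosteroids, -0.06. Per length, averaged over all animals, CTSD (41.7 FPKM) and MTUS1 (18.7 FPKM) stood above AGT (9.33 FPKM), and PREP (8.64 FPKM), ACE (6.93 FPKM) and LNPEP (6.54 FPKM) below it within their spread over animals.

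**Figure D3:**
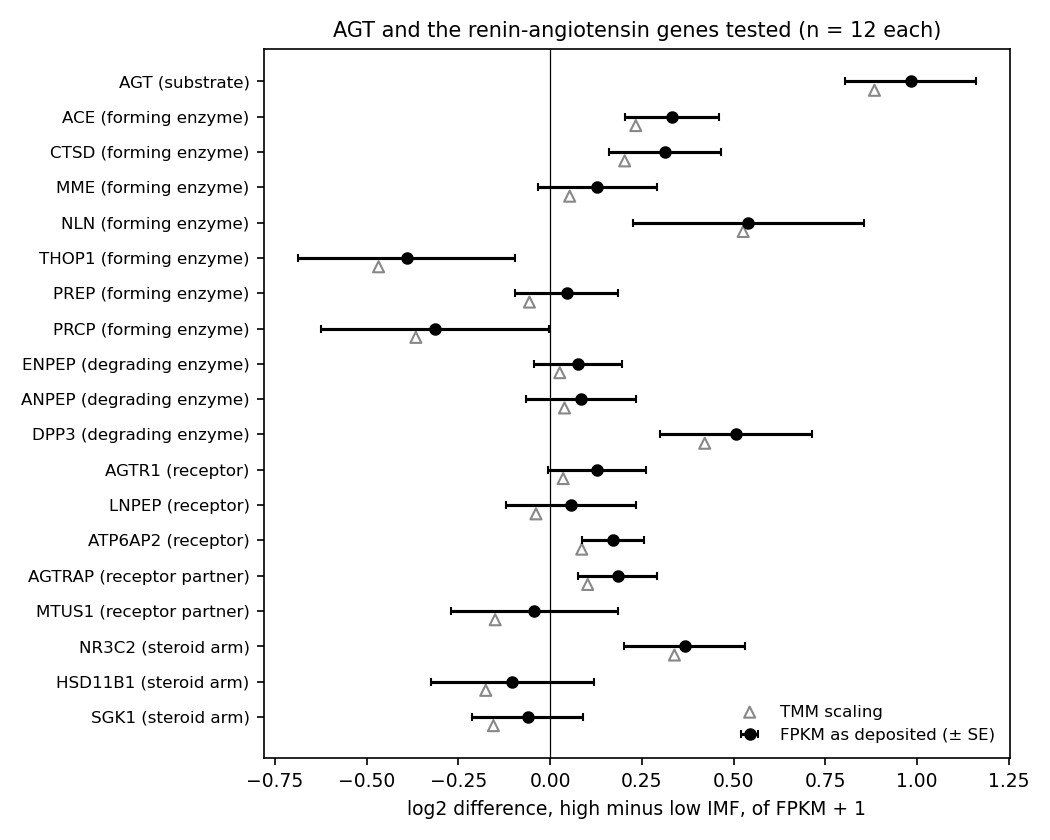
Log2 difference of FPKM + 1 (x axis, high minus low IMF) for AGT and the 18 renin-angiotensin genes tested, grouped by role (y axis). Circles with bars are the difference ± SE from the limma fit on FPKM as deposited (n = 12 each). Triangles are the difference after TMM scaling. AGT, at 0.98, was chosen for its difference and is shown without a test. None of the 18 renin-angiotensin genes passed the adjusted threshold.

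Transcription factors that are known to act on the AGT promoter in other species, mostly human, rat and mouse, gave 1 gene of larger difference. Of 20 listed, 17 were tested and none passed. Of these 17, 14 had a positive difference with a median of 0.11, beside 73.4% of all genes. With TMM scaling 10 were positive, beside 49.7% of all genes. At an unadjusted limma p under 0.05, 2 were higher (2 with TMM scaling), beside 6.79% of all genes (2.77% with TMM scaling). CEBPA, a factor of liver and fat cells, averaged 9.40 ± 2.70 FPKM in high and 5.17 ± 2.78 FPKM in low IMF (0.81, limma adjusted p = 0.164), and all 12 high IMF animals exceeded the median of low IMF. It passed without high IMF animal 7 and low IMF animal 10, the pair with the low share of abundant genes (0.90, limma adjusted p = 0.0173). That pair was left out after the data were seen. Without it 18 of 11666 genes were called higher, against 5 of 11757 with all animals. PPARG, the master regulator of fat cell formation, had 0.45 (adjusted p = 0.419), the glucocorticoid receptor NR3C1 0.48 and STAT3, which carries interleukin-6 signals, 0.21.

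Genes known to be induced by angiotensin II showed no member with an unadjusted p under 0.05, beside 6.79% of all genes higher and 0.893% lower. Of 22 listed, 16 were tested and 12 had a positive difference with a median of 0.11, beside 73.4% of all genes. With TMM scaling 8 were positive, beside 49.7% of all genes. The smallest p belonged to RCAN1, a calcineurin inhibitor (0.73, limma adjusted p = 0.704), followed by the matrix genes POSTN (0.40) and COL3A1 (0.42). RCAN1 varied widely, at 12.6 ± 16.8 FPKM in high and 5.71 ± 4.50 FPKM in low IMF.

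Of the other serpins, the family to which angiotensinogen belongs by sequence, 8 of 20 listed were tested. Of these, 7 had a positive difference with a median of 0.19, beside 73.4% of all genes, and none passed. With TMM scaling 4 were positive, beside 49.7% of all genes. At an unadjusted limma p under 0.05, 2 were higher (1 with TMM scaling), beside 6.79% of all genes (2.77% with TMM scaling). SERPINB1, an inhibitor of neutrophil proteases, averaged 3.03 ± 0.665 FPKM in high and 2.31 ± 0.411 FPKM in low IMF (0.28, limma adjusted p = 0.429). SERPINF1, a secreted serpin of fat and other tissues that inhibits no protease, averaged 46.7 ± 16.3 FPKM in high and 32.4 ± 10.5 FPKM in low IMF (0.50, adjusted p = 0.544). SERPINH1, the collagen chaperone, had 0.28.

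Of 15 adipocyte markers tested, 14 had a positive log2 difference with a median of 0.80, beside 73.4% of all genes. With TMM scaling 13 were positive, beside 49.7% of all genes. LEP, the gene of leptin (0.65, limma adjusted p = 0.00697), and TUSC5, a fat cell protein of glucose uptake (1.29, adjusted p = 0.0138), passed, beside 0.0425% of all genes called higher. LEP averaged 0.888 FPKM in high and 0.175 FPKM in low IMF. Its mean over all animals, 0.531 FPKM, met the 0.5 FPKM minimum only through high IMF. ADIG, at 0.944 FPKM in high and 0.185 FPKM in low IMF, met it in the same way. In all, 11 were higher at an unadjusted p under 0.05, LEP and ADIG among them, beside 6.79% of all genes. With TMM scaling 11 were higher too, beside 2.77% of all genes. ADIPOQ, the gene of adiponectin (1.32, adjusted p = 0.0544), and the triglyceride enzyme DGAT2 (1.44, adjusted p = 0.0693) came next. The droplet proteins PLIN1 (-0.09) and PLIN4 (0.19), the secreted protease CFD (0.17) and GPD1 (0.06, or -0.06 with TMM scaling), an enzyme of glycerol phosphate, had an unadjusted p over 0.05, and these 4 were named after their values were seen. Summed over the list, FPKM ran from 395 over a median of 505 to 687 in high and from 313 over 396 to 565 in low IMF, and 11 of 12 high IMF animals exceeded the median of low IMF. GPD1 alone averaged 262 FPKM in high and 249 FPKM in low IMF, so a large part of this sum is that gene. No marker was at 0 in a high IMF animal, and ADIG and PPARG were listed at 0 in at least 1 low IMF animal. Of 15 hepatocyte markers, only APOA1, an apolipoprotein, was in the table, at 2.96 ± 2.05 FPKM in high and 3.82 ± 1.71 FPKM in low IMF. The other 14, albumin (ALB) among them, are not analysed here.

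AGT was chosen for its difference between the IMF groups, and whether its spread within groups entered that choice is not known here. After the mean of each IMF group was removed, AGT was set against the mean z score of 11 gene lists over 24 animals. The adipocyte level gave a Pearson r of 0.45 (permutation p = 0.0289, adjusted over the 11 lists p = 0.159) and a Spearman rho of 0.52 (p = 0.00768, adjusted p = 0.0282). The macrophage level gave r = 0.51 (p = 0.0189, adjusted p = 0.159) and rho = 0.57 (p = 0.00601, adjusted p = 0.0282). The other renin-angiotensin genes gave r = 0.42 (p = 0.0529, adjusted p = 0.194) and rho = 0.56 (p = 0.0070, adjusted p = 0.0282). No Pearson r passed the adjustment, while these 3 rank correlations did. With TMM scaling none of the 3 passed (adjusted p = 0.151 each), at rho of 0.41, 0.51 and 0.47.

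For each of them r was larger in low IMF, where AGT also varied more on the log2 scale used for r. In FPKM its SD was alike, at 2.76 in high and 2.83 in low IMF. The difference in r between groups was not tested. Within groups, r was 0.27 in high and 0.57 in low IMF for adipocyte, 0.22 and 0.64 for macrophage, and 0.22 and 0.53 for renin-angiotensin genes. Within the identifier sets, r was 0.56 in the larger-numbered and 0.31 in the smaller-numbered set for adipocyte, 0.49 and 0.60 for macrophage, and 0.50 and 0.40 for renin-angiotensin genes. Without the 2 animals farthest from the median level, the pooled r was 0.39, 0.38 and 0.45. The remaining 8 lists, of AGT regulators, angiotensin II response, serpins, endothelium, smooth muscle, fibroblasts and both fibre types, gave r from -0.18 to 0.28, and none passed by r or rho.

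**Figure D4:**
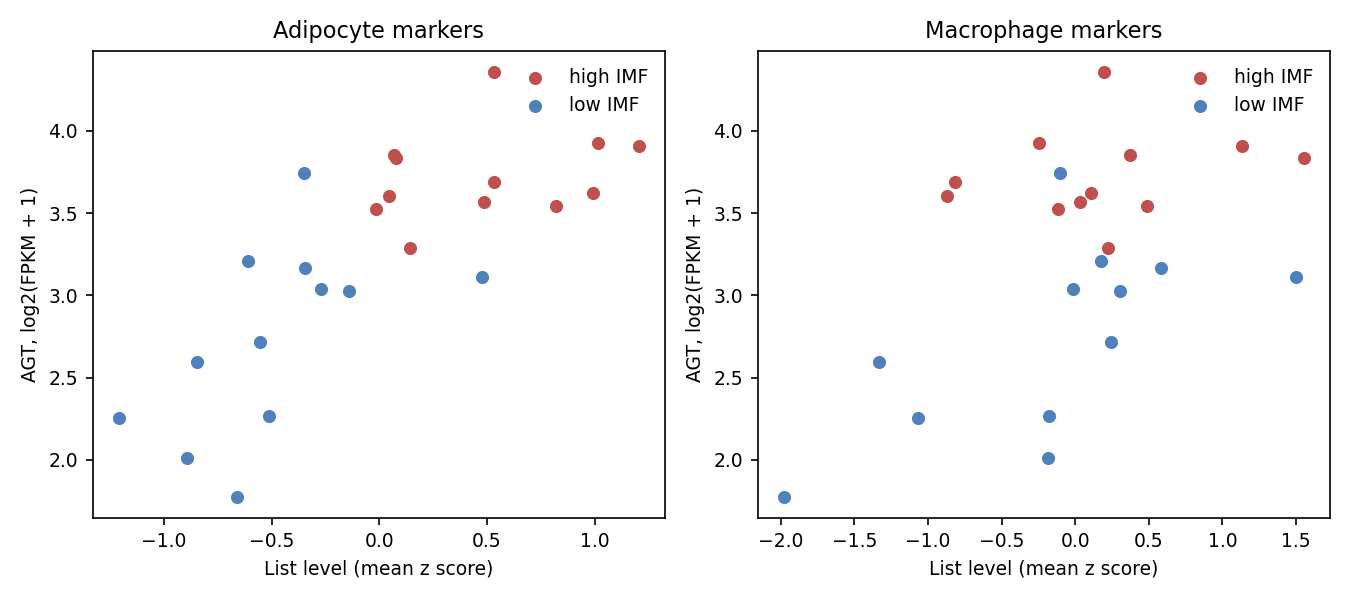
AGT as log2(FPKM + 1) (y axis) against the mean z score of the adipocyte list and of the macrophage list (x axes), 1 point per animal, high IMF in red and low IMF in blue. Within high IMF, where AGT spans a narrower range, r is 0.27 and 0.22, and within low IMF, where it spans a wider one, r is 0.57 and 0.64.

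The adipocyte level itself separated the groups, at 0.492 ± 0.435 in high and -0.492 ± 0.426 in low IMF. With that level as a term, an alternative chosen after the data were seen, the IMF difference of the AGT sum was 0.52 (SE 0.263), against 0.98 without it. It was 0.38 (SE 0.345) for the assembled isoform and 0.75 (SE 0.577) for the reference transcript, against 0.94 and 0.74 without the term. The macrophage level was 0.171 ± 0.695 in high and -0.171 ± 0.922 in low IMF, and the 7 macrophage markers tested summed to 10.4 to 37.5 FPKM in high and 4.58 to 37.5 FPKM in low IMF. Of these 7, 5 had a positive difference, with a median of 0.21, beside 73.4% of all genes and a median of 0.077. None had an unadjusted p under 0.05, beside 6.79% of all genes higher and 0.893% lower. CD163, CSF1R, MRC1 and the complement genes C1QA, C1QB and C1QC are among the 7, and CD163 was listed at 0 in at least 1 animal of each group. What part fat cells or macrophages have in the AGT level was not tested.

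Ranked over 8011 genes with a symbol and a mean of at least 1 FPKM, the pattern most like AGT over the 24 animals, IMF means removed, was that of LYVE1 (r = 0.73), a hyaluronan receptor of lymphatic vessels and some tissue macrophages. It was followed by PLOD3 (0.72), an enzyme that modifies collagen, CD209 (0.72), a lectin of macrophages and dendritic cells, and C1R (0.71), a protease of the complement cascade. These 4 genes alone reached 0.7, while the median gene had 0.08. Next came CCDC94 (0.65), BMP1 (0.65), LZTFL1 (0.64), MED19 (0.64), TMEM214 (0.63) and TAP1 (0.63). TMM scaling left all 10 between 0.61 and 0.72.

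Between the IMF groups, none of these 10 passed the adjusted threshold. Of them 1, CCDC94, was higher at an unadjusted limma p under 0.05 (0.17), beside 6.79% of all genes. CD209 had the largest difference, 5.94 ± 2.54 FPKM in high and 4.04 ± 1.78 FPKM in low IMF (0.47, limma adjusted p = 0.660). LYVE1 averaged 1.28 ± 0.508 FPKM in high and 1.11 ± 0.646 FPKM in low IMF, and C1R 14.5 ± 5.04 FPKM in high and 15.3 ± 8.23 FPKM in low IMF. Except for CCDC94 (r = 0.73 in high and 0.68 in low IMF), r was larger in low IMF, as with C1R (0.33 in high and 0.87 in low IMF). The difference in r between groups was not tested.

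At the other end, among the 5 lowest, were ADA (-0.64), adenosine deaminase, BCAT2 (-0.59, or -0.36 with TMM scaling), the muscle enzyme that starts the breakdown of branched-chain amino acids, RCSD1 (-0.56) and OSGIN1 (-0.56). These correlations were selected as the extremes of many genes that share libraries and scaling, so no p is given.

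Among the renin-angiotensin genes, AGTR1 was the most alike to AGT, with r = 0.53 and rank 97 of 8011, at 0.01 in high and 0.78 in low IMF. HSD11B1 followed with 0.50, while ACE was at -0.07. Of the fat cell markers, FABP4 had 0.54, LIPE 0.53 and TUSC5 0.50, but PPARG had -0.09 and GPD1 -0.37. C1QA and C1QC of the macrophage list had 0.56 and 0.55. Genes of 1 list thus followed AGT to very different degrees.

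Around AGT on chromosome 14, COG2 had the largest positive difference of the listed loci. Within 1000000 bases lie 20 other loci of the table, 19 of them with a symbol, 10 upstream and 10 downstream. Of these, 15 had a positive difference, beside 73.4% of all genes, and none passed the adjusted threshold. With TMM scaling 9 were positive, beside 49.7% of all genes. At an unadjusted p under 0.05, 3 were higher (1 with TMM scaling), beside 6.79% of all genes (2.77% with TMM scaling). The nearest, COG2, a subunit of a Golgi tethering complex, had the smallest p. It ran from 1.74 over a median of 3.72 to 5.75 FPKM in high IMF, against 1.37, 2.09 and 3.87 FPKM in low IMF. Its means were 3.78 ± 1.04 FPKM in high and 2.38 ± 0.791 FPKM in low IMF (0.50, SE 0.135, limma adjusted p = 0.233), and 11 of 12 high IMF animals exceeded the median of low IMF. Within groups COG2 followed AGT weakly (r = 0.16).

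The others with such a p lay farther off, GALNT2, a glycosyltransferase, at 303312 bases (0.29) and TAF5L, a subunit of a histone acetylase complex, at 597248 bases (0.26). On the upstream side, the nearest locus, C1orf198, had 0.03 (-0.06 with TMM scaling). ACTA1, the skeletal muscle actin gene 754830 bases away, had -0.59 (SE 0.382, adjusted p = 0.722), with all 12 high IMF animals below the low IMF median of 30337 FPKM. These 5 loci were picked out after their values were seen. The sources used here do not give whether strand was kept in the libraries, and COG2 faces AGT across 3970 bases, and what part reads past the end of either gene have in these values was not tested.

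**Figure D5:**
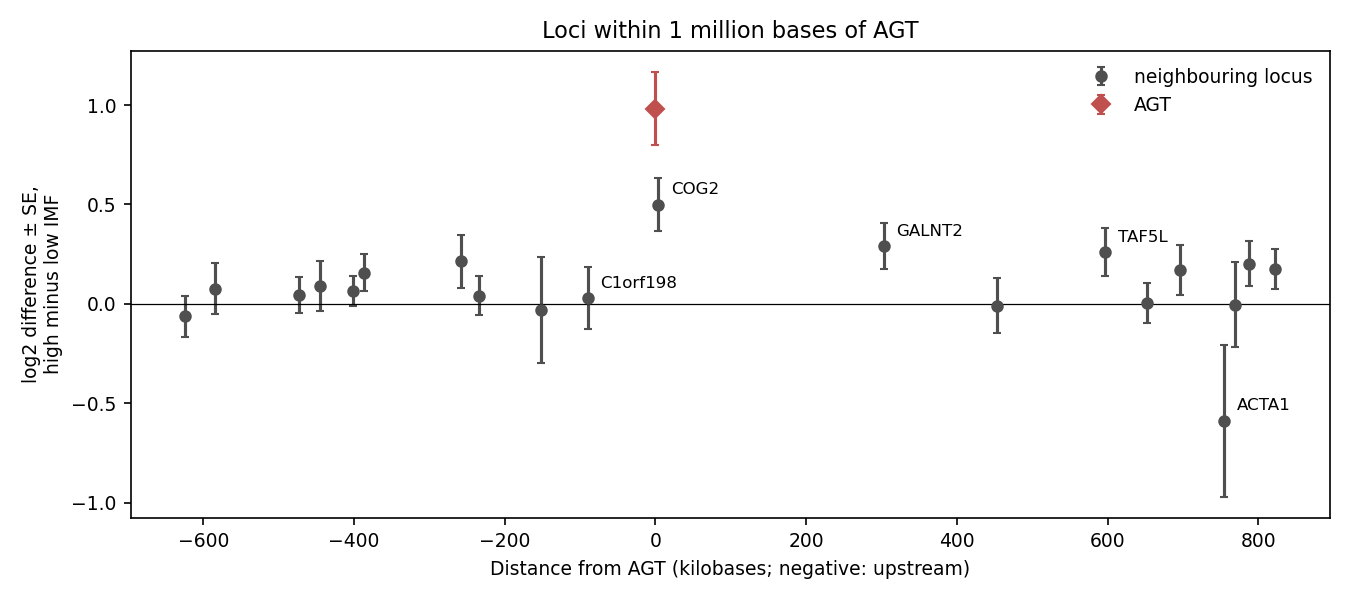
Log2 difference ± SE of FPKM + 1 (y axis, high minus low IMF, n = 12 each) for AGT and the 20 loci within 1000000 bases, against distance from AGT in kilobases (x axis, negative upstream). AGT stands at 0.98 and its nearest neighbour COG2 at 0.50, while the other 19 lie between -0.59 and 0.29.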

How the data were processed

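The authors deposited 1 table of FPKM with 1 value for each transcript in each animal; the FPKM unit is an inference from the values. Per the submitters' processing notes, Sscrofa11.1, StringTie 1.3.3 and HISAT2 2.0.5 were used, without stated roles. Which annotation was used is not stated there. The deposited table also has a fold change, a p-value and q-values, per the file headers; only the fold ratio of AGT is printed.

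Each transcript is above 0 in at least 19 of 24 libraries, so genes seen in fewer are not analysed here. FPKM was summed per symbol and chromosome, so that a gene's value does not rest on 1 isoform. Depth was inferred from steps of 1 base of coverage in FPKM times length (tolerance 0.05 base, reads of 150 bases), so it is relative. The values are base coverage, so no count model was used.

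limma 3.58.1 in R 4.3.3 (trend, robust) was run on log2(FPKM + 1) of 11757 genes (mean FPKM of 0.5 or more), with Benjamini-Hochberg adjustment at 0.05; log2 differences understate changes of low genes. Permutation tests were two-sided and within IMF groups, 100000 resamples, or exact for 6 against 6 (smallest p 0.00216), with numpy 2.4.6 and scipy 1.17.1 in Python 3.11.15. Both were tested on simulated data. List levels are mean z scores over members, AGT left out.

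AGT, the gene lists and the tests were chosen with earlier results of these data known. Named genes are the renin-angiotensin list, the 4 of smallest p in the other lists, called members, loci within 1000000 bases, and the 10 highest and 5 lowest correlations; any other gene was picked with its values known. Alternatives were TMM and upper-quartile scaling, no filter or 5 FPKM, a pseudocount of 0.1, the identifier digits or the Y-linked level as a term, 1 animal per shared 9 digits (21 animals), and leaving out each animal. The replicate numbers only follow the order of deposition. One gene called lower in high IMF, and some others that the naming rule takes, are not reported here.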

Additional observations from a re-analysis of the deposited data

How the results depend on the processing

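The IMF difference of AGT kept its direction in every alternative run. AGT was chosen for this difference in the same animals, so that is a description and not support for it. The sum lay between 0.87 (upper quartile) and 1.11 (pseudocount 0.1) under the planned settings and moved to 0.52 (SE 0.263) with the adipocyte level as a term, chosen after the data were seen. With that term the assembled isoform gave 0.38 (SE 0.345) and the reference transcript 0.75 (SE 0.577), and with a pseudocount of 0.1 the reference transcript gave 1.17 (SE 0.848). The cause of these moves was not tested. Leaving out 1 animal gave 0.89 to 1.07 for the sum, 0.86 to 1.05 for the assembled isoform and 0.63 to 0.92 for the reference transcript, and 0 to 0 renin-angiotensin genes called. Leaving out single animals, the number of genes called was 3 to 31, at 10 without high IMF animal 2, 3 without high IMF animal 5 and 31 without low IMF animal 10. It was 21 without high IMF animal 7 and low IMF animal 10, a pair left out after the data were seen. Without that pair 6 adipocyte markers passed in place of 2, and 1 regulator, CEBPA, in place of 0.

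The rank correlations of AGT with the renin-angiotensin, adipocyte and macrophage levels lost their calls in 4 settings. They were 0.467, 0.408 and 0.506 with TMM, 0.447, 0.445 and 0.494 with upper-quartile scaling, 0.555, 0.509 and 0.496 with 1 animal per 9 digits, and 0.564, 0.490 and 0.522 without that pair. Correlations near 0 turned sign. Smooth muscle had rho of -0.133 (TMM) and -0.0478 (upper quartile), and r of 0.0081 (pseudocount 0.1) and 0.0369 (9 digits). Fibroblast had rho of -0.0678 and -0.0435 under the 2 scalings. Fast fibre had r of 0.0751 and 0.0574, rho of 0.0217 and 0.0270 under them, and rho of 0.0243 without the pair.

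Of 360 values of 38 named genes under an alternative, 351 kept their sign and 9 turned. These were C1orf198 (-0.0611 with TMM, -0.0694 with upper-quartile scaling, -0.0144 with 9 digits), LNPEP (-0.0383, -0.0469 and -0.0544), PREP (-0.0561 and -0.0653 under the scalings) and MTUS1 (0.0165 with the Y-linked level). ADIPOQ passed in 5 alternatives. The cause of these changes was not tested.

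No paired analysis was possible because the labels do not pair high with low IMF animals. Counting error limits AGT little, but how the authors divided reads between the overlapping transcripts is not given in the labels.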
